A study of Homo sapiens with 9 samples.

Results

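The cancer-testis antigen families MAGEA, MAGEB, MAGEC, GAGE, PAGE, XAGE and SSX were examined in 9 RNA sequencing libraries of K562, an erythroleukaemia cell line that comes from chronic myeloid leukaemia. Members were chosen by symbol. They were the protein-coding genes of the count files whose ID matched a symbol that starts with 1 of these 7 names and a number. They came to 56 of the 63677 genes listed in the count files (56 of 19376 protein-coding genes), all on chromosome X: 12 MAGEA, 11 MAGEB, 3 MAGEC, 11 GAGE, 6 PAGE, 5 XAGE and 8 SSX genes. SSX2IP, on chromosome 1, matches the letters but is named for a protein that binds SSX2, and was left out; it stood at 128 ± 24.6 CPM in P95H clones and 119 ± 27.7 CPM in WT clones (SD, n = 4 each), and at 135 CPM in the parental line. The libraries were 4 CRISPR clones that carry the P95H substitution in the splicing factor SRSF2 (P9, P15, P22 and P38; P95H clones), 4 CRISPR clones with wild-type SRSF2 (W19, W33, W36 and W42; WT clones) and 1 of the parental line, also wild type for SRSF2. The study was set up to look at splicing in these clones, and its deposited counts give 1 value per gene. Each clone is 1 library, and separate editing events within a group are not stated by the labels, so a p-value measures the spread between clones.

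Cancer-testis genes are normally transcribed in the germ cells of the testis and are silent in most other adult tissues, where DNA methylation at their promoters is the best known lock. Many tumours and tumour cell lines transcribe some of them again, often in a patchy, clone by clone way, and their peptides are targets of T cells and vaccines. MAGE proteins bind RING E3 ubiquitin ligases and redirect them, with the pair of MAGEA3 or MAGEA6 and TRIM28 as the best known case; SSX proteins are repressors that act with polycomb and are fused to SS18 in synovial sarcoma; GAGE, PAGE and XAGE proteins are short, largely disordered and less well understood. Several of these genes lie in recent, near-identical copies, which matters for any measure built on uniquely placed reads.

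The promoter windows of 3 genes are shown because they belong to genes with 3 different patterns in these libraries. MAGEB2 was on in some libraries and off in others, MAGEA3 was on in all of them, and PAGE5 was on in the parental line alone. Each is the stretch from 250 to 61 bases before the RefSeq start in GRCh38.p14, on the plus strand, at chrX:30215313-30215502 for MAGEB2, chrX:152698544-152698733 for MAGEA3 and chrX:55220096-55220285 for PAGE5. Capitals mark the CG pairs, the bases that carry DNA methylation; these counts hold no methylation measurement.
MAGEB2: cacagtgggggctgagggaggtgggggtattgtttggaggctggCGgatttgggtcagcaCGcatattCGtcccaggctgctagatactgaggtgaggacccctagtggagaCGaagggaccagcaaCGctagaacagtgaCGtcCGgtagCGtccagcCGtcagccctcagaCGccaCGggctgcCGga
MAGEA3: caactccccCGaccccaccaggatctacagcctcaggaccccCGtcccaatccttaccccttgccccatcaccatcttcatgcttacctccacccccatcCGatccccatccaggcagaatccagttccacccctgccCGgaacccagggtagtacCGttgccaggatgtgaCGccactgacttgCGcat
PAGE5: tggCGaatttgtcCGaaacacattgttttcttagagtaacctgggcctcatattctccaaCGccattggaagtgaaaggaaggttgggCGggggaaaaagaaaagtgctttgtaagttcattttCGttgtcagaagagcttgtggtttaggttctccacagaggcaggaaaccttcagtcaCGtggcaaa
Over the full 250 bases before the start, MAGEB2 and MAGEA3 held 15 CG pairs each and PAGE5 held 9. MAGEA3 and MAGEA6 had the same letter at 250 of 250 positions. Of the 56 members, 52 had a promoter in RefSeq. The median number of CG pairs was 9.5 for the 6 members on in all libraries, 8 for the 12 on in some, 8 for the 34 on in none and 11 over all 35116 RefSeq promoters of the same length. The core letters of ETS factor sites, GGAA on either strand, were found 1 time in MAGEB2, 2 times in MAGEA3 and 4 times in PAGE5, and at least once in 92.7% of all promoters. MAGEA1 and MAGEB17, described below, were not among the promoters matched.

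Levels are counts scaled to a common library total (CPM) scaled by the trimmed mean of M values. Libraries held 24546255 to 35477328 counts in genes, so that 1 CPM stood for 22.5 to 34.7 reads and 3 counts for 0.0865 to 0.133 CPM. A member was called on at 1 CPM or more, off at 3 counts or fewer, and low in between; the floor of 3 counts covers counting error only. W33 and P22 stood apart from the other clones of their groups: edgeR called 2246 of 20636 genes in W33 against the other WT clones and 88 in P22 against the other P95H clones. Both counts depend on which clones they are set against: W33 had 527 without W19 and 0 without W36 or without W42 (5003 and 4570 at an unadjusted p under 0.05), and P22 had 31 without P9, 35 without P15 and 48 without P38. SRSF2 itself had 499 ± 62.0 CPM in P95H clones and 489 ± 27.7 CPM in WT clones (SD, n = 4 each), and 514 CPM in the parental line; counts per gene do not show which allele was read. In bulk RNA a lower level can come from fewer cells that transcribe a gene or from less RNA per cell, and these cannot be told apart here.

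Between 10 and 14 of the 56 members were on in any 1 library. The P95H clones had 12 in P9 and 11 each in P15, P22 and P38; the WT clones had 11 in W19, 10 in W33, 11 in W36 and 10 in W42; and the parental line had 14. Off members numbered 35, 39, 33 and 39 in P9, P15, P22 and P38, against 37, 39, 42 and 39 in W19, W33, W36 and W42, with 32 in the parental line. Most members were therefore off or low in any library: 17.9 to 25% of members were on in a library, against 46.0 to 48.7% of the 759 other protein-coding genes of chromosome X and 58.1 to 59.5% of the 19320 other protein-coding genes.

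**Figure D1:**
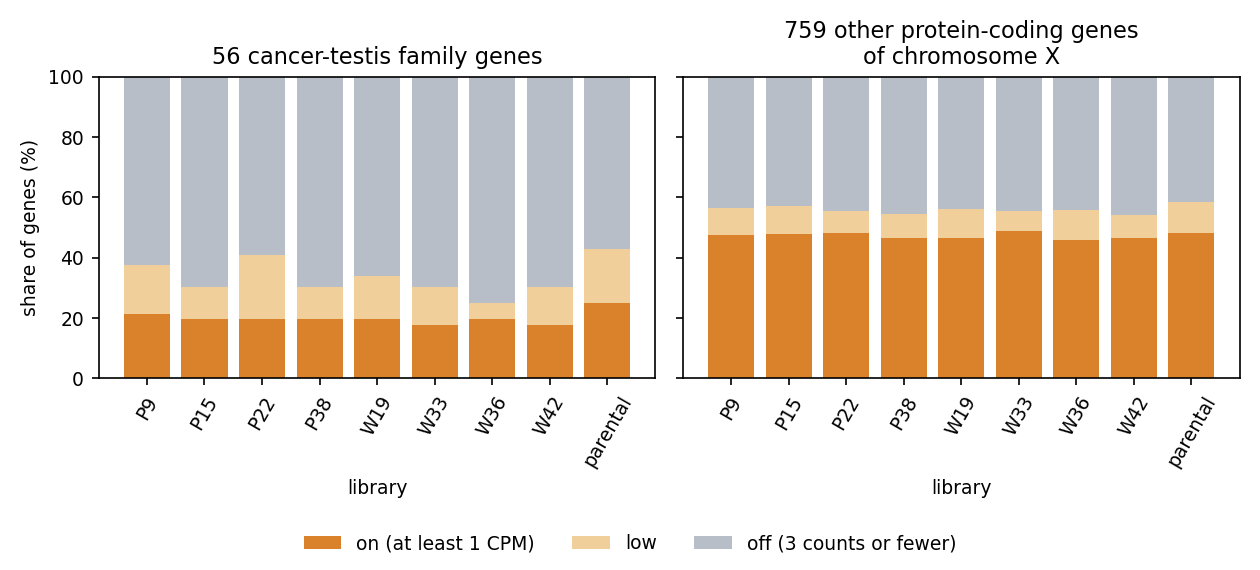
Share of genes on (at least 1 CPM), low, and off (3 counts or fewer) in each library, as stacked bars in percent, for the 56 members (left) and the 759 other protein-coding genes of chromosome X (right). The on share of members lies between 17.9 and 25% in every library, below the 46.0 to 48.7% of the other X genes.

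Of the 56 members, 6 were on in all 9 libraries, 14 were on in some and 36 in none, including 26 that were off everywhere. The 6 were MAGEA3, MAGEA6, MAGEA12, MAGEA8, MAGEC1 and MAGEC2, and together they held 86.6 to 96.4% of the counts of all members in each library. A gene was said to switch when it was on in at least 1 library and off in at least 1 other. This held for 11 of the 20 members on anywhere (55.0%), against 385 of 12117 other protein-coding genes (3.18%) and 23 of 396 other X genes (5.81%). Without W33 and P22 the counts were 8 of 19 members (42.1%), 198 of 11897 other protein-coding genes (1.66%) and 11 of 383 other X genes (2.87%). With the on threshold at 5 CPM, which leaves out genes hovering near the floor, 5 of 12 members switched (41.7%), against 62 of 10443 other protein-coding genes (0.594%) and 3 of 331 other X genes (0.906%). Those 5 were MAGEA1, MAGEB1, MAGEB2, MAGEB17 and PAGE5.

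**Figure D2:**
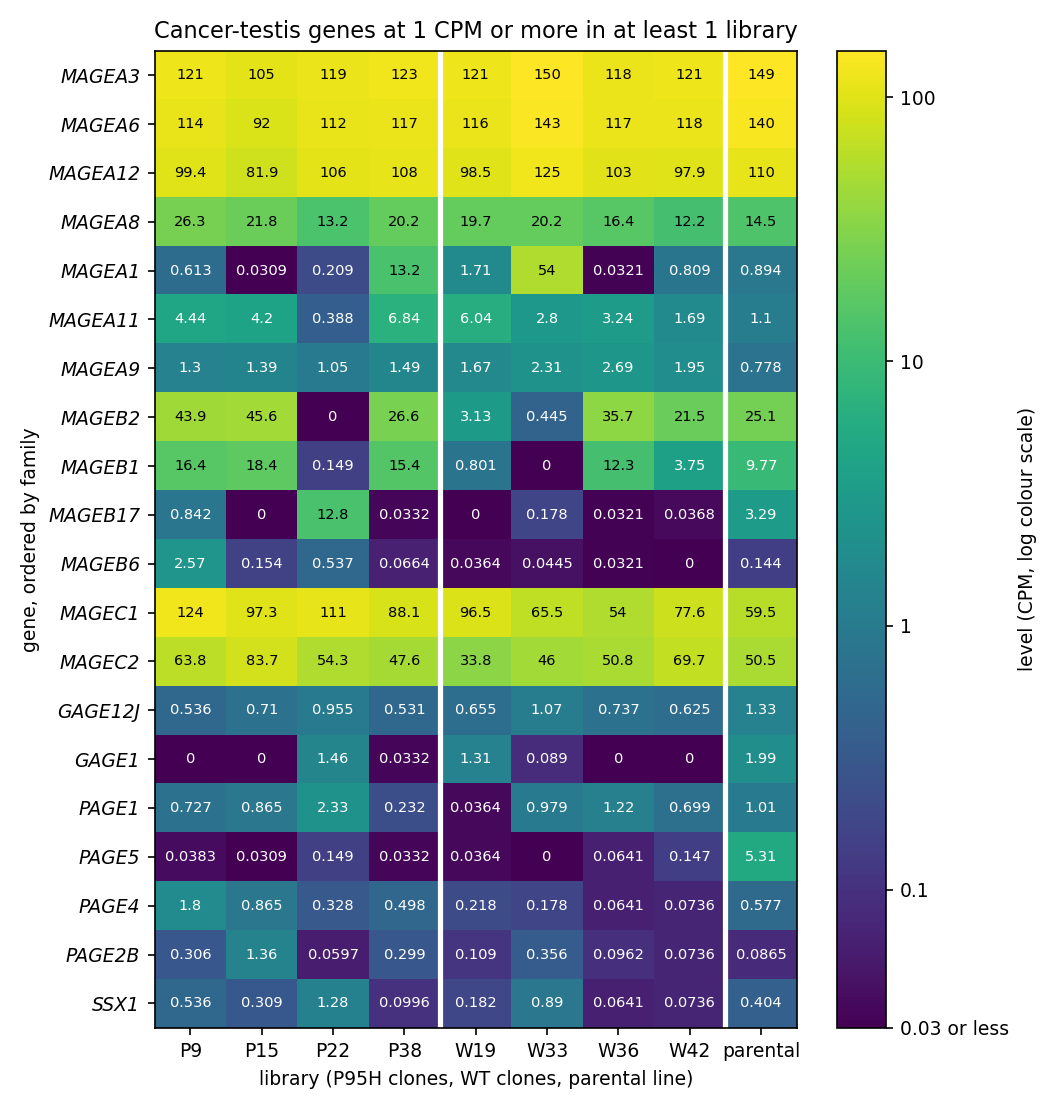
Level in CPM (number in each cell, colour on a log scale) of the 20 members that reached 1 CPM in at least 1 library, by family, in P95H clones, WT clones and the parental line. MAGEA3, MAGEA6, MAGEA12, MAGEC1 and MAGEC2 are high in every column, while MAGEA1, MAGEB1, MAGEB2 and MAGEB17 reach 12.8 CPM or more in some columns and lie at 0.445 CPM or less in others.

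MAGEA3 and MAGEA6, which share most of their sequence and bind TRIM28, were the highest members as a mean over the 9 libraries, although MAGEC1 was above both in P9 and above MAGEA6 in P15. MAGEA3 had 121, 105, 119 and 123 CPM in P9, P15, P22 and P38, against 121, 150, 118 and 121 CPM in W19, W33, W36 and W42; the parental line had 149 CPM. MAGEA6 ran from 92.0 to 117 CPM in P95H clones and from 116 to 143 CPM in WT clones, with 140 CPM in the parental line. MAGEA12, a close relative in the same cluster at the end of the long arm, ran from 81.9 to 108 CPM in P95H clones and from 97.9 to 125 CPM in WT clones. For all 3 genes the groups overlapped, W33 was the highest clone and P15 the lowest. Their coefficients of variation over the 8 clones were 10.2% for MAGEA3, 11.9% for MAGEA6 and 11.8% for MAGEA12, set beside a median of 14.4% (quartiles 10.3 and 19.8%) over 3384 other protein-coding genes with a mean of 50 to 200 CPM. Their log2 differences, P95H over WT, were small, and none passed edgeR's test: MAGEA3 had -0.11, MAGEA6 -0.17 and MAGEA12 -0.09.

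MAGEA8, another type I MAGE of little known function, had 26.3, 21.8, 13.2 and 20.2 CPM in P9, P15, P22 and P38, against 19.7, 20.2, 16.4 and 12.2 CPM in W19, W33, W36 and W42. It stayed on throughout, with P22 and W42 low and the groups overlapping. MAGEC1, a large MAGE protein with a repeat-rich front part known as a myeloma antigen, had 124, 97.3, 111 and 88.1 CPM in P9, P15, P22 and P38. WT clones had 96.5, 65.5, 54.0 and 77.6 CPM of MAGEC1 in W19, W33, W36 and W42, and the parental line 59.5 CPM. Except for P38, the P95H clones lay above every WT clone; P38 lay below W19. MAGEC2, which binds TRIM28 as well, had 63.8, 83.7, 54.3 and 47.6 CPM in P9, P15, P22 and P38, against 33.8, 46.0, 50.8 and 69.7 CPM in W19, W33, W36 and W42, and the groups overlapped. Per kilobase of exon, and as a mean over the 9 libraries, the order of levels was MAGEA3 (70.0 CPM per kb), MAGEA6 (63.8), MAGEA12 (53.2), MAGEC2 (27.9), MAGEC1 (20.1), MAGEB2 (13.9) and MAGEA8 (7.74). That order is one of means and does not hold in each library: in P22, W19 and W33 MAGEB2 lay below MAGEA8.

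MAGEA1, the first tumour antigen of the family to be cloned, was the least even of the MAGEA genes. It had 0.613, 0.0309, 0.209 and 13.2 CPM in P9, P15, P22 and P38 (16, 1, 7 and 397 counts), against 1.71, 54.0, 0.0321 and 0.809 CPM in W19, W33, W36 and W42 (47, 1215, 1 and 22 counts); the parental line had 0.894 CPM (31 counts). A single clone of each group carried nearly all of its reads: P38 was 21.5-fold above P9, the next P95H clone, and W33 was 31.6-fold above W19, the next WT clone. P15 and W36 were off, with 1 count each. Its exons are 99.3% its own sequence, so its reads are not shared with another MAGE gene. The nearest expressed genes outside the families kept narrower ranges: ZNF275 had 20.9 to 34.5 CPM and PNMA6A 0.536 to 2.85 CPM over the 9 libraries, with the highest PNMA6A value in W33.

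**Figure D3:**
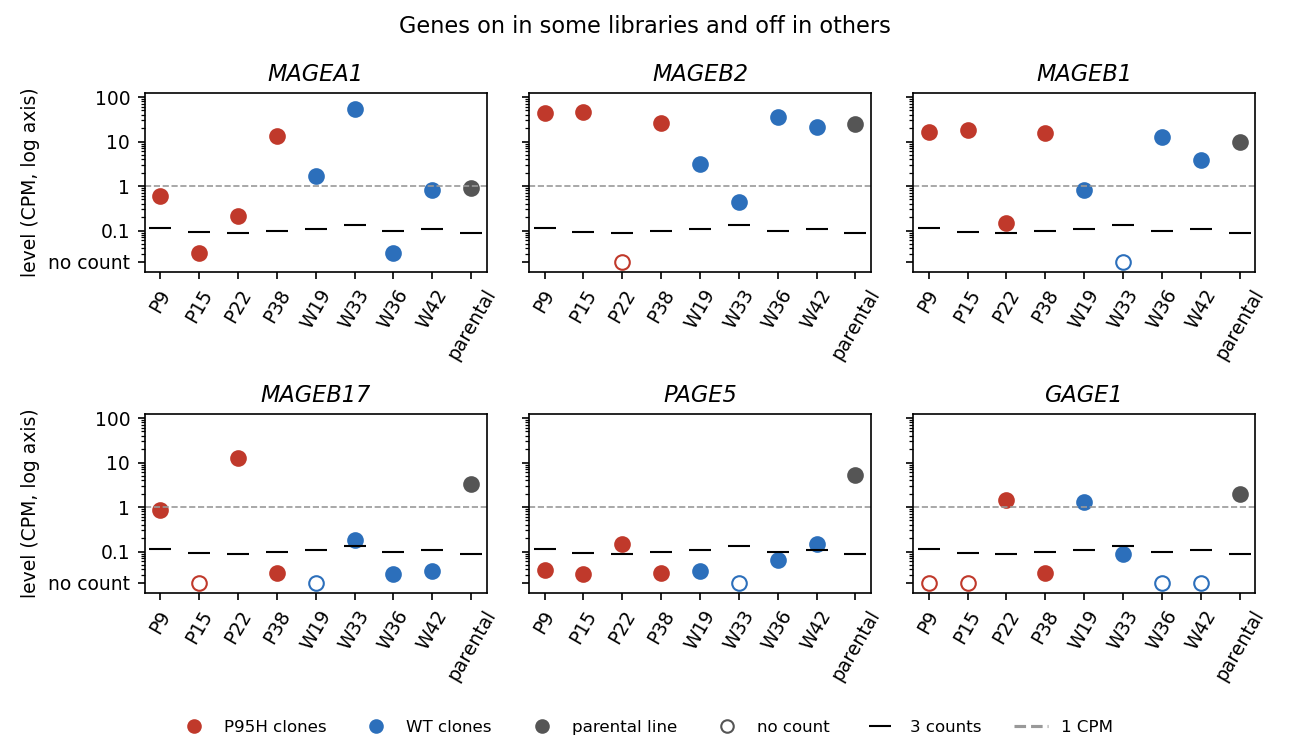
Level in CPM on a log axis of 6 members that switched, 1 point per library (red, P95H clones; blue, WT clones; grey, parental line; open, no count), with a black tick at 3 counts and a dashed line at 1 CPM. MAGEA1 peaks in W33 and P38, MAGEB2 and MAGEB1 are lowest in P22 and W33, MAGEB17 peaks in P22, PAGE5 is on in the parental line alone, and GAGE1 is on in P22, W19 and the parental line.

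MAGEB1 and MAGEB2 lie in 1 cluster on the short arm and were low in the same libraries. MAGEB2, a MAGE protein known to limit the formation of stress granules, had 43.9, 45.6, 0 and 26.6 CPM in P9, P15, P22 and P38 (1146, 1477, 0 and 802 counts). In W19, W33, W36 and W42 it had 3.13, 0.445, 35.7 and 21.5 CPM (86, 10, 1114 and 583 counts), and in the parental line 25.1 CPM (870 counts). P22, with no count, was at least 297-fold lower than P38, the next lowest P95H clone, when set at the floor of 3 counts; W33 was 80.3-fold lower than W36. MAGEB1 had 16.4, 18.4, 0.149 and 15.4 CPM in P9, P15, P22 and P38, against 0.801, 0, 12.3 and 3.75 CPM in W19, W33, W36 and W42, with 9.77 CPM in the parental line. P22 (5 counts) was 103-fold lower than P38, and W33 (no count) at least 92.5-fold lower than W36. Thus P22 and W33, the libraries that stood apart over all genes, were the lowest 2 for both genes, followed by W19. Of the nearest expressed genes outside the cluster, GK did not show this order, with 2.10 to 4.93 CPM and P22 highest. PPP4R3C, far upstream, shared it in part. It had 0 CPM in P22, W33 and W42, but it was highest in W19 (10.7 CPM). It had 6.42 CPM in P15 and at most 0.651 CPM in the remaining libraries. Both genes have almost only their own sequence (100% for MAGEB2 and 98.7% for MAGEB1 of their 50-base windows). The RefSeq promoter window of MAGEB1 held 1 CG pair, and all 250 of its bases lie in an annotated exon of the neighbouring MAGEB4, which had no count in any clone and 2 in the parental line.

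MAGEB17, a little studied member from another part of the short arm, was highest in P22, where MAGEB1 and MAGEB2 were lowest among P95H clones. It had 12.8 CPM in P22 (430 counts) and 0.842 CPM in P9 (22 counts), with 0 counts in P15 and 1 in P38; WT clones had 0, 4, 1 and 1 counts in W19, W33, W36 and W42, and the parental line 3.29 CPM (114 counts). P22 was 15.2-fold above P9 and 3.91-fold above the parental line. An antisense gene, AC078993.1, covers 25.8% of its exon length, and the library kit does not mark strand, so reads of the pair cannot be told apart there. AC078993.1 was counted in the same libraries, with 664 counts in P22, 178 in the parental line and 19 in P9, and at most 4 in each of the others. AP1S2, the nearest expressed protein-coding gene on one side, was also highest in P22 (68.3 CPM) and the parental line (39.0 CPM), with 11.3 to 17.1 CPM in the other 7 libraries; CTPS2, on the other side, ran from 35.8 to 50.7 CPM. MAGEB6, the remaining MAGEB gene that reached 1 CPM, did so in P9 (2.57 CPM) and was off in P38 and in all 4 WT clones, with 0.154 CPM in P15, 0.537 CPM in P22 and 0.144 CPM in the parental line.

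PAGE5 was on in the parental line and off or near the floor in every clone. The parental line had 184 counts (5.31 CPM). P9, P15, P22 and P38 had 1, 1, 5 and 1 counts, and W19, W33, W36 and W42 had 1, 0, 2 and 4 counts; the highest clone, P22, stood at 0.149 CPM, 35.5-fold below the parental line. Of its exon windows 87.8% are its own. The nearest expressed genes on either side were on in all libraries, FAM104B at 16.0 to 24.7 CPM and MAGEH1, a MAGE gene active in many tissues, at 15.02 to 43.7 CPM. As the parental line is 1 library, this difference has no replicate on the parental side.

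The other PAGE genes were close to the threshold. PAGE1 had 0.727, 0.865, 2.33 and 0.232 CPM in P9, P15, P22 and P38, against 0.0364, 0.979, 1.22 and 0.699 CPM in W19, W33, W36 and W42, and 1.01 CPM in the parental line. PAGE4, a disordered protein best known from the prostate, had 1.80, 0.865, 0.328 and 0.498 CPM in P9, P15, P22 and P38, above each of the WT clones, which had 0.218, 0.178, 0.0641 and 0.0736 CPM in W19, W33, W36 and W42. Groups that do not overlap were found for 8.57% of all genes tested. PAGE4 did not pass the filter on low values of the comparison between the groups of clones; in the 8 alternatives where it was tested, its log2 difference was 2.07 to 3.04 and its adjusted p 0.182 to 0.574. It had 0.577 CPM in the parental line. PAGE2B was highest in P15 (1.36 CPM) and at 0.356 CPM or less elsewhere. For PAGE2B, 50.3% of its exon windows also occur in PAGE2, so part of its reads may not have been counted.

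Among GAGE genes, GAGE1 and GAGE12J reached 1 CPM. GAGE1 had 49 counts in P22 (1.46 CPM), 36 in W19 (1.31 CPM) and 69 in the parental line (1.99 CPM), and at most 2 counts in each of the other 6 libraries. The 2 clones with GAGE1 belong to different groups. GAGE2A, a near copy with which GAGE1 shares 75 exon bases in the annotation, had its counts in the same clones, 11 in P22 and 6 in W19, with 1 in W33 and 0 elsewhere. GAGE12J ran evenly, from 0.531 to 0.955 CPM in P95H clones and from 0.625 to 1.07 CPM in WT clones, with 1.33 CPM in the parental line. SSX1, the SSX gene most often fused in synovial sarcoma, had 0.536, 0.309, 1.28 and 0.0996 CPM in P9, P15, P22 and P38, against 0.182, 0.890, 0.0641 and 0.0736 CPM in W19, W33, W36 and W42. No XAGE gene reached 1 CPM; the highest count was 6, for XAGE3 in W19.

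MAGEA11, a coregulator of the androgen receptor, and MAGEA9 were on in 8 of the 9 libraries. MAGEA11 had 4.44, 4.20, 0.388 and 6.84 CPM in P9, P15, P22 and P38, against 6.04, 2.80, 3.24 and 1.69 CPM in W19, W33, W36 and W42, with 1.10 CPM in the parental line; P22 was the one low library. MAGEA9 had 1.30, 1.39, 1.05 and 1.49 CPM in P9, P15, P22 and P38, against 1.67, 2.31, 2.69 and 1.95 CPM in W19, W33, W36 and W42. Every P95H clone lay below every WT clone for MAGEA9, as groups did not overlap for 8.57% of all genes tested. The parental line was lower still, at 0.778 CPM. For MAGEA9, 6.01% of its exon windows are its own and 94.0% occur in MAGEA9B, so part of its reads may not have been counted.

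Unique placement of reads may limit what can be seen of these families, and how far it did so was not measured. A silent copy and a copy whose reads were not placed would both have no count. For each member the share of its 50-base exon windows found in no other gene of the annotation was computed, and 22 members had less than 50% of their own. Of these 22, 12 had no count in any library, against 3 of the 34 other members (MAGEB5, MAGEB18 and XAGE5). The 12 were GAGE12B, GAGE12D, GAGE12E, GAGE12F, GAGE12G, GAGE12H, SSX2B, SSX4, SSX4B, XAGE1B, MAGEA2 and MAGEA9B. For 9 members no window was their own, and their highest count in any library was 5, for SSX2 in the parental line; a count of 0 for such a gene says only that no read was placed in it alone. Genes that were on also had little sequence of their own. MAGEA9 kept 6.01% of its windows (94.0% occur in MAGEA9B), GAGE12J 10.2%, MAGEA3 43.5% and MAGEA6 46.1%. Per 1000 windows of its own, MAGEA9 had 15.3 CPM as a mean over the 9 libraries and GAGE12J 15.9 CPM, close to the 14.4 CPM of MAGEB2, while MAGEA3 had 161, MAGEA6 137 and MAGEA12 61.8 CPM. These values assume that only reads inside own windows were counted; read length is not given in the sources used here, and longer or paired reads place more of the sequence.

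**Figure D4:**
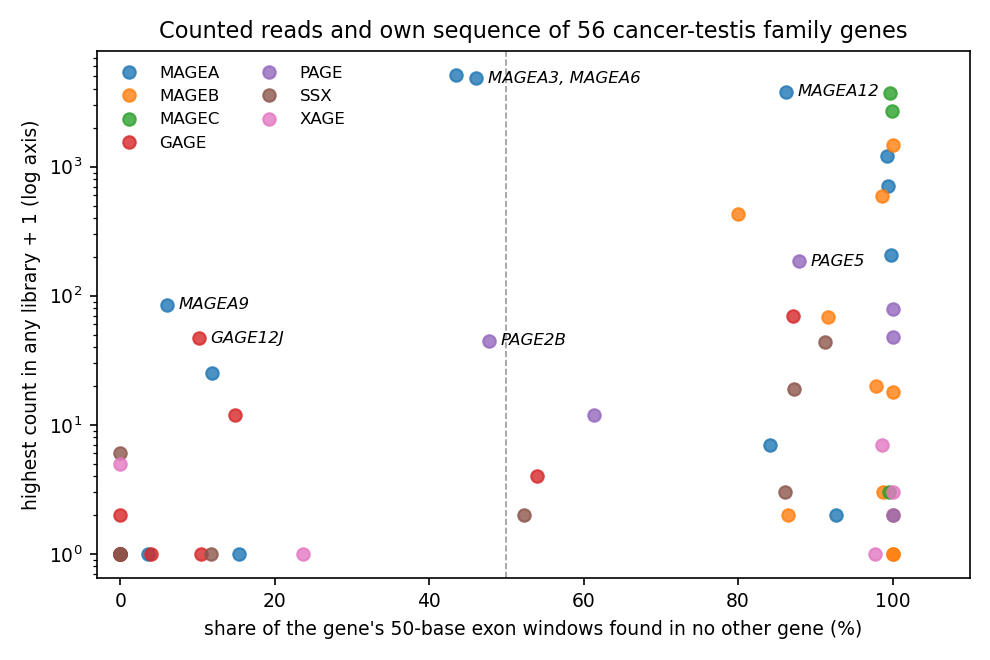
Highest count in any library plus 1 (log axis) against the share of a gene's 50-base exon windows that occur in no other gene (percent), for the 56 members, coloured by family; the dashed line marks 50%. Most members near 0% sit at the bottom with no count, whereas MAGEA3 and MAGEA6 reach the top with 43.5 and 46.1% of their own windows.

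Between P95H and WT clones, 13 members passed the filter on low values and 43 did not. By edgeR's quasi-likelihood test with Benjamini-Hochberg adjustment over 18173 genes, 0 of the 13 members passed an adjusted p of 0.05, and 0.0% of all genes did. DESeq2 called 1.44% of genes and limma-voom 0.325%, with 0 members in each. At an unadjusted p under 0.05 there were 2 members, set beside 11.7% of all genes. They were MAGEC1, higher in P95H clones at 105 ± 15.6 CPM, against 73.4 ± 18.2 CPM in WT clones (SD, n = 4 each; log2 difference 0.52, SE 0.18, edgeR adjusted p = 0.347, 0.176 to 0.596 over the alternatives), and MAGEA9, lower at 1.31 ± 0.19 CPM, against 2.16 ± 0.44 CPM (log2 difference -0.71, SE 0.23, edgeR adjusted p = 0.335, 0.167 to 0.576 over the alternatives). The groups did not overlap for 1 of the 13 members, MAGEA9, and for 8.57% of all genes tested. The median log2 difference was 0.20 over the 13 members and 0.01 over all genes tested.

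The switching genes varied widely between clones of each group. MAGEA1 had a log2 difference of -1.98 over all 8 clones; without W33 it was 2.05 and without P38 it was -5.65, and none of these passed the test. MAGEB2 averaged 29.03 ± 21.2 CPM in P95H clones and 15.2 ± 16.6 CPM in WT clones (SD, n = 4 each). MAGEB1 averaged 12.6 ± 8.39 CPM in P95H clones and 4.22 ± 5.65 CPM in WT clones. Their log2 differences of 0.93 and 1.56 did not pass; leaving out a clone moved MAGEB2 between 0.53 and 1.79 and MAGEB1 between 1.15 and 3.03, and limma-voom gave -0.84 for MAGEB2.

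Against the WT clones, the parental line had 0 of 26 tested members past edgeR's threshold, and 0.00485% of all genes passed. PAGE5 came closest without passing, with a log2 difference of 6.28 (SE 0.75). It passed the filter on low values only through the parental library, where it is high. Its tests therefore add no support beyond the counts of that 1 library. Other members can also enter this comparison through 1 high library, so a count of members above the share of all genes shows no excess. DESeq2 called PAGE5 (adjusted p = 0.000102) and 0.0339% of all genes, and so did edgeR with no filter on low counts (adjusted p = 0.000951). At an unadjusted p under 0.05 were PAGE5, MAGEB17 and PAGE4, higher in the parental line, and MAGEA9, lower (4 members, with 1.72% of all genes).

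Each clone was also set against the 3 others of its group. These comparisons share libraries and are not independent. A gene passes their filter even when it is high in 1 library, and 26 members were tested, against 13 between P95H and WT clones. Members can thus enter through the very clone that is tested, so a count of members above the share of all genes shows no excess. Under edgeR no member passed in any of the 8, where the share of all genes that passed was 0.0% for P9, 0.00485% for P15, 0.426% for P22 and 0.0% for P38, and 0.0% for W19, 10.9% for W33, 0.0% for W36 and 0.0194% for W42. The share for W33 was 0% when W36 or W42 was left out. DESeq2 called 3 members over the 8 comparisons, where its share of all genes was 0.199% for P9, 1.3% for P15, 2.27% for P22 and 0.0872% for P38, and 0.0% for W19, 17.5% for W33, 0.0242% for W36 and 0.0388% for W42. In P22, 10 of 26 members had an unadjusted p under 0.05, 4 higher and 6 lower, beside 8.55% of all genes. The smallest were MAGEA11, with a log2 difference of -3.72 (SE 0.81, edgeR adjusted p = 0.105, 0.000131 to 0.202 over the alternatives), and MAGEB17, with 5.52 (SE 1.22, edgeR adjusted p = 0.111, 0.0333 to 0.520). SSX3, named after its values were seen because it never reached 1 CPM, had 18 counts in P22 and at most 1 in each other P95H clone. DESeq2 called MAGEA11 and MAGEB2 in P22. In W33, MAGEA3, SSX1 and MAGEA1 had an unadjusted p under 0.05, beside 29.8% of all genes. MAGEA1 had a log2 difference of 6.0 (SE 2.22, edgeR adjusted p = 0.121, 0.121 to 0.347 over the alternatives). DESeq2 called MAGEB1 in W33 (adjusted p = 0.0107) and gave no adjusted p for MAGEA1 in any comparison. P9 had 2 members at an unadjusted p under 0.05 (MAGEB6 and PAGE4), P15 had 4 (PAGE2B, PAGE2, MAGEB10 and MAGEB17), W19 had 2 (MAGEB16 and PAGE1), and P38, W36 and W42 had 0; the share of all genes was 3.75% in P9, 7.74% in P15, 0.591% in W19, 2.37% in P38, 0.649% in W36 and 1.56% in W42.

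Other cancer-testis genes were measured for 47 of 50 symbols, and 8 were on in all libraries, 32 off in all and 2 switched (DDX53 and LUZP4). Of the 47, 18 had no count in any library, among them CTAG1A, CTAG1B, CSAG2, CSAG3, NXF2 and NXF2B. The share of own sequence was not computed for this list, so a count of 0 need not mean a silent gene. None of the 11 tested passed between P95H and WT clones. PRAME, a cancer-testis antigen and ubiquitin ligase adaptor, was the highest at 1740 to 2098 CPM in P95H clones and 1743 to 2634 CPM in WT clones. CTCFL, the germline paralogue of CTCF, had 111 to 187 CPM in P95H clones and 41.6 to 185 CPM in WT clones. In W33 against the other WT clones, edgeR called LAGE3 (log2 difference 1.07), CSAG1 (0.80) and PRAME (0.56) higher and CTCFL (-1.68) lower, with adjusted p from 0.0153 to 0.0438, beside 10.9% of all genes. None of the 4 passed without W36 or without W42, and LAGE3 alone passed without W19 (adjusted p = 0.0478). CSAG1 lies beside MAGEA12. PASD1, a germline relative of the clock gene CLOCK, named after its values were seen, had 0.498, 1.58, 72.3 and 1.63 CPM in P9, P15, P22 and P38, against 31.7, 51.9, 1.15 and 2.83 CPM in W19, W33, W36 and W42, with 11.04 CPM in the parental line. Its high clones, P22, W19 and W33, were the 3 with the lowest MAGEB2. That match was noticed in these same values, and a relation between the 2 genes was not tested.

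Of the 11 type II MAGE genes, which are active in many tissues, 5 were on in all libraries and 5 off in all. MAGED1, a scaffold protein in apoptosis and differentiation, had 1.69 CPM in W42, against 45.4, 64.8 and 43.9 CPM in W19, W33 and W36; the P95H clones had 38.4 to 43.6 CPM and the parental line 37.3 CPM. It fell in W42 by 4.92 on the log2 scale (SE 0.34, edgeR adjusted p = 0.00322 over 20636 genes, beside 0.0194% of all genes), and passed with each other WT clone left out. Among 15 partners and targets of MAGE and SSX proteins, 13 were on in all libraries. TRIM28, the ligase bound by MAGEA3, MAGEA6 and MAGEC2, had 667 to 696 CPM in P95H clones and 549 to 998 CPM in WT clones. In W33 against the other WT clones, edgeR called TRIM28 (log2 difference 0.77, SE 0.12, adjusted p = 0.0166) and STUB1, a chaperone-linked ubiquitin ligase (1.0, SE 0.11, adjusted p = 0.0153), higher, and LHX4, a LIM homeobox factor (-1.46, SE 0.26, adjusted p = 0.0189), lower. All 3 calls were lost when W36 or W42 was left out, and they stand beside 10.9% of all genes called in W33. Of the 14 partners and targets tested there, 7 had a log2 difference above 0.

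Of 29 measured genes for DNA methylation and for repressors of germline genes, 26 were on in all libraries. None passed edgeR's test in any of the 10 comparisons, in which 0.0 to 10.9% of all genes passed. Where few or no genes passed, a count of 0 does not show that the list was unchanged. DNMT1, the maintenance methyltransferase, had 206 to 264 CPM in P95H clones and 162 to 235 CPM in WT clones, with W33 lowest. DNMT3B, a de novo methyltransferase, had 77.0 to 123 CPM in P95H clones and 97.7 to 121 CPM in WT clones. TET3, which oxidises methylcytosine, had 52.4 to 65.3 CPM in P95H clones and 33.7 to 45.0 CPM in WT clones. The groups did not overlap, as for 8.57% of all genes tested, and the edgeR adjusted p was 0.293 (log2 difference 0.51). DNMT3L, the germline cofactor of de novo methylation and named after its values were seen, was the gene of this list that switched, from 0.199 to 3.55 CPM in P95H clones and from 0.368 to 2.49 CPM in WT clones, with 0.0865 CPM in the parental line. Whether these levels bear on the state of the members was not tested.

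The libraries carried the markers of K562 and not those of germ cells. All 9 erythroleukaemia markers were on in all libraries, but their levels differed between clones. Against the other clones of its group, P22 had 1 of 9 above 0 (median log2 difference -1.30), P15 had 9 (0.72) and W33 had 6 (0.74). The remaining clones had 3 to 5. Between P95H and WT clones 8 of 9 lay above 0 (median 0.60), and 0 passed edgeR's test. HEMGN, a nuclear protein of blood progenitors, had 40.9 CPM in P22, against 183 to 262 CPM in P9, P15 and P38 (log2 difference -2.51, SE 0.28, edgeR adjusted p = 0.00915), and passed with each clone left out. GATA1 and KLF1, erythroid transcription factors, were higher in W33 (log2 differences 0.91 and 0.89). Both were called by edgeR, beside 10.9% of all genes, and both calls were lost without W36 or W42. PTPRC, the leukocyte marker CD45 and 1 of 4 lymphoid markers, had 0.179 CPM in P22, against 113 to 149.5 CPM in P9, P15 and P38 (log2 difference -9.46, SE 1.53, edgeR adjusted p = 0.0411); it did not pass when any 1 of them was left out (adjusted p up to 0.116). PTPRC had 23.1 CPM in W33, against 106 to 193 CPM in the other WT clones. In P22 and in W33 alike, 3 lymphoid markers were tested, and the 2 besides PTPRC had log2 differences above 0. The part of these differences in the state of the members was not tested. Of 10 germ cell markers SYCP3 was on in all libraries, at 12.5 to 15.9 CPM in P95H clones and 14.6 to 22.9 CPM in WT clones. The other 9 summed to 0 to 0.154 CPM in P95H clones, 0 to 0.109 CPM in WT clones and 0.0577 CPM in the parental line, and DAZL, PRM1, PRM2 and TNP2 had no count.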

How the data were processed

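Polyadenylated RNA of 9 K562 libraries was sequenced on a HiSeq2000 after a TruSeq RNA kit, per the labels' protocols; the kit does not mark strand. The authors deposited unnormalized read counts, 1 per Ensembl gene, made with TopHat2 2.0.4 and HTSeq 0.6.1p1 on GRCh37, per the submitters' processing notes; the gene set is Ensembl release 75, per the file labels. The sources used here give no counting settings. Reads placed more than once (5.06 to 6.06% of those listed) are outside the gene counts, and 43.3 to 44.2% were in genes. The 5 summary values of each library (no feature 47.6 to 49.1%, ambiguous 2.23 to 2.55%) stayed out of totals and tests. Symbols, chromosomes and exon lengths came from GENCODE 29 by gene ID (52526 of 63677 IDs matched); as its build differs, no gene coordinates are given. Of 59 symbols that match the rule there, GAGE13 and GAGE2E were not used here, because their IDs were not among those counted. A family copy under an unmatched ID would have been missed.

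Groups came from the sample titles. The test was edgeR 4.0.16 (R 4.3.3), with filterByExpr, TMM scaling, a robust quasi-likelihood fit, Benjamini-Hochberg adjustment over all genes tested and a threshold of 0.05, checked on simulated counts. P95H against WT clones used the 8 clones. The parental line and each single clone were compared in models of all 9 libraries, where the spread of a lone library is taken from the others; there a gene passes the filter even when it is high in 1 library. Alternatives were DESeq2 1.42.0, limma-voom (limma 3.58.1), RLE or upper quartile scaling, a filter of 1 CPM in 4 libraries or none, a 3-group fit, near-identical copies summed per family, other thresholds for on and off, and each clone left out; leaving out W33 and P22 together, and single libraries for the switching count, was added after seeing the data. Every member reaching 1 CPM in any library was named, and of other lists the genes that passed and up to 4 by p and 4 by level. The members and lists were chosen with earlier results of these data known.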

Additional observations from a re-analysis of the deposited data

Results flagged for a closer look

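In groups of 4 clones, a clone far from the other 3 was looked for in 32 groups of values of named members, and 8 such clones were found. Chance flags about 1 in 20 groups of values, but members named because they reach 1 CPM in some library may qualify through the very clone that stands apart, so the 8 cannot be set against that share. In the P95H clones, P22 stood apart for MAGEB17 (12.8 CPM, highest), MAGEB1 (0.149 CPM, lowest) and GAGE1 (1.46 CPM, highest), and P38 for MAGEA1 (13.2 CPM, highest). In the WT clones, W33 stood apart for MAGEA1 (54.0 CPM), MAGEA3 (149.9 CPM) and MAGEA6 (143 CPM), and W19 for GAGE1 (1.31 CPM), each as the highest.

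Among relatives of the families that are not protein-coding, SSX6P, an SSX pseudogene, had 2.45 CPM in P22 and at most 0.267 CPM in each other library. MAGEA8-AS1, an antisense RNA of MAGEA8, had 4.59 CPM in P9, the clone with the highest MAGEA8, against 0.375 CPM in the parental line. It did not follow MAGEA8 throughout. P15, the next highest clone for MAGEA8, had 1.14 CPM of MAGEA8-AS1, against 2.52 CPM in P38 and 2.58 CPM in W33.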

How the results depend on the processing

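The count of members past edgeR's threshold between P95H and WT clones was 0 under every alternative run. For the parental line it was 0, and became 1 (PAGE5) with no filter (0.014% of all genes) and 1 with DESeq2. For P22 it was 0, and became 2 with no filter (0.697% of all genes), 2 with DESeq2 and 1 without P9 (0.151%; 0 to 1 with each P95H clone left out). For W33 it became 1 with DESeq2. Over all single clones together it was 0, with 2 under no filter and 3 under DESeq2. With on set at 5 CPM, P22 had 7 members on, W19 7 and the parental line 9; with on set at 10 counts, P22 had 19. The number that switch, 11, was 5 at 5 CPM, 6 with off set at 0 counts, and 9 to 11 with 1 library left out. Of the values of single members, 1619 kept direction and call, 77 changed sign without passing the test and 7 came to pass it; no called value changed sign. No paired analysis was possible because the groups share no clone numbers. Depth limits the members near 1 CPM, which rest on about 22.5 to 34.7 reads, and unique placement may limit the 22 near-identical members.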
